A study of Mus musculus with 24 samples.

Results

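The 10 genes described here encode receptors through which hormones and vitamins reach bone cells: Pth1r, Ghr, Vdr, Esr1, Nr3c1, Thra, Thrb, Rara, Rarg and Rxra. They were picked by symbol from the 55335 genes in the count files, and all 10 were among the 20434 genes that passed the filter on low counts. The libraries were bulk RNASeq of polyA RNA from cultured primary osteoblasts (OBs) of mouse parietal bone. WT cultures were compared with cultures heterozygous (Het) for the G610C knock-in of Col1a2, in which a cysteine replaces a triple helical glycine of the type I collagen α2 chain, on a C57BL/6J background. Cells were collected on day 8, day 14 or day 21 of culture. Each genotype and day had 4 libraries, 24 in all. Cells were released from bones of pups 4 to 5 days old and pooled by genotype. All cultures of both genotypes received the same osteogenic medium with serum and ascorbic acid 2-phosphate. Any hormones and vitamins in the serum were not measured. The comparisons ask how the message of each receptor moved as the cultures matured, and whether it differed between Het and WT.

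PTH1R is a G protein-coupled receptor for parathyroid hormone and its related peptide, and osteoblasts are its main target cells in bone. GHR is a cytokine-type receptor that signals through JAK2 and STAT5. The other receptors are nuclear receptors, transcription factors that bind DNA and change gene expression when vitamin D, estrogen, glucocorticoid, thyroid hormone or retinoic acid is bound, and VDR, the thyroid hormone receptors and the retinoic acid receptors work as heterodimers with a retinoid X receptor such as RXRA.

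Library totals ranged from 17140202 to 59734231 counts. The 6 libraries numbered replicate 1 were the shallowest (17140202 to 25825762 counts), carried another style of file name and differed from replicates 2 to 4 in several of the values below, so results that rest on them are given with and without them. By the study's methods the cultures came from separate experiments with cells of different litters, which differed in plating density and in the oxygen level during expansion, and each well was drawn from pooled cells. The labels do not say which libraries belong to which experiment, so experiment could not be a term of the fit, and p-values measure the spread between these libraries only, part of which may be technical. In the Het group of day 21 it was replicate 4 that stood furthest apart (chi-square per degree of freedom of 122 to 126 against the other 3 libraries, which differed from each other by 5.32 to 66.8). Levels are given as RQ, in which the 4 housekeeping genes Actb, Actg1, Sdha and Mrfap1 set the scale: each count was divided by their geometric mean count for that library. Markers of OBs and osteocytes were present in every library, with the summed RQ of 12 genes between 17.6 and 48.3 at day 8 and between 96.5 and 187 later. Markers of other cells were present too. The summed RQ of 14 macrophage and osteoclast genes rose from between 0.724 and 1.403 at day 8 to between 6.69 and 17.5 at day 21. Among its osteoclast genes, Calcr had at most 1 count in any library, Acp5 had 301 to 1367 counts, and Atp6v0d2 rose by 2.09 (log2, adjusted p = 2.95e-05 by edgeR) from day 14 to day 21. Of the markers tested in Het against WT at days 14 and 21, 9 of 13 for macrophages and osteoclasts were higher and none lower, 1 of 12 for OBs and osteocytes was higher and 2 lower, and 1 of 8 for chondrocytes was lower. Without replicate 1 these counts were 10 higher and 1 lower, 1 higher and 11 lower, and 8 lower. Of all genes, 7.15% were called higher and 8.01% lower with every library, and 18.4% and 23.5% without replicate 1. With every library, 1 marker each was higher of 5 for adipocytes, 5 for muscle, 6 for endothelium and 7 for fibroblasts. Of those for fibroblasts, 2 were lower. Col1a2 itself differed by -0.41 ± 0.18 (log2, adjusted p = 0.13 by edgeR), which does not report the allele. In bulk RNA, fewer cells of a type and less RNA per cell cannot be told apart.

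The promoters of Pth1r, Vdr and Esr1 are shown because these were the receptors that rose most between days 8 and 14. Each line holds the bases just upstream of a RefSeq start site on GRCm38.p6, read 5′ to 3′ on the strand of the gene and limited to bases outside annotated exons, with capitals marking matches to the GC box GGGCGG on either strand.
Pth1r, first start site, chr9:110747146-110747395, minus strand: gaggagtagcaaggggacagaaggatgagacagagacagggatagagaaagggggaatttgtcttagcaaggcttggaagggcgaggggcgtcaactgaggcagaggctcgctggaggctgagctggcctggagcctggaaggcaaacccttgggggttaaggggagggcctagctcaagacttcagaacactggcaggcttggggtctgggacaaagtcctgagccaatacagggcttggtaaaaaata
Pth1r, middle start site, chr9:110743687-110743936, minus strand: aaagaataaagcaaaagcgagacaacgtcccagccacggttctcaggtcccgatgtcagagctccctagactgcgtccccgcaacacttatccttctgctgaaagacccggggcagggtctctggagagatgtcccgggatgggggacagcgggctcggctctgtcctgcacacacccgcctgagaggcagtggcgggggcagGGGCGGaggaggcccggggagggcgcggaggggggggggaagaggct
Vdr, chr15:97908311-97908546, minus strand: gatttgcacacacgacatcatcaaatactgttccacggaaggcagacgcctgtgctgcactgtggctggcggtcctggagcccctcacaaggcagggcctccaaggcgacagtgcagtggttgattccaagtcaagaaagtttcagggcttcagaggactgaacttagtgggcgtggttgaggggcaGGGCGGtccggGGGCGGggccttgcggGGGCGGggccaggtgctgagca
Esr1, chr10:4709908-4710154, plus strand: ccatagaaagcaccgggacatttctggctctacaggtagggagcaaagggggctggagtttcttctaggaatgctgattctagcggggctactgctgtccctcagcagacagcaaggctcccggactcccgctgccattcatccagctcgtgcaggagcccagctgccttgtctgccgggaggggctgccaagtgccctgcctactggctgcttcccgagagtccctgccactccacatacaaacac
The Vdr stretch held 3 GC boxes, the middle Pth1r window 1, and the first Pth1r and the Esr1 stretches none of these letters. Of 32851 RefSeq windows of 250 bases, 32.7% held a GC box. None of the 4 stretches held TGTGGT (the RUNX core, in 14% of windows), AGGTCA (the core bound by many nuclear receptors, also 14%), the cAMP response element TGACGTCA (1.55%) or TATAAA (12.4%), on either strand. The 250 bases before these start sites had a GC content of 56% and 65.6% for Pth1r, 61.2% for Vdr and 59.6% for Esr1, against a median of 52.4% over all windows. Start sites whose windows overlap exons more widely are not shown: the last of Pth1r (109 exonic bases, GC content 70.4%, 4 GC boxes) and the other of Esr1 (250 exonic bases, 47.6%, no GC box). The promoter table matched 8 of the 10 receptors and has no entry for Nr3c1 or Thra.

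The receptor genes lie on 7 chromosomes of GRCm38, the build called mm10 in the submitters' notes, and all are protein coding. Pth1r (ENSMUSG00000032492.14) spans positions 110722085 to 110747145 of chromosome 9 on the minus strand, and Ghr (ENSMUSG00000055737.12) 3317760 to 3583492 of chromosome 15, minus strand. Vdr (ENSMUSG00000022479.15) lies at 97854425 to 97910630 of chromosome 15, minus strand. Esr1 (ENSMUSG00000019768.16) spans 4611593 to 5005614 of chromosome 10, plus strand, and Nr3c1 (ENSMUSG00000024431.15) 39410545 to 39519421 of chromosome 18, minus strand. Thra (ENSMUSG00000058756.13) spans 98740638 to 98769006 of chromosome 11, plus strand, and Thrb (ENSMUSG00000021779.17) 17660261 to 18038090 of chromosome 14, plus strand. Rara (ENSMUSG00000037992.16) lies at 98927818 to 98974942 of chromosome 11, plus strand, and Rarg (ENSMUSG00000001288.15) at 102234938 to 102257517 of chromosome 15, minus strand. Rxra (ENSMUSG00000015846.15) spans 27676440 to 27762957 of chromosome 2, plus strand, in the earlier version of the gene held by GENCODE M21. Thra shares 263 exonic bases with Nr1d1 on the opposite strand, 5.7% of its exon length, and Pth1r shares 95 with Myl3. The strand rule of the counting is not given in the sources used here, so reads over those bases could belong to either gene.

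The plot of RQ per kilobase of exon shows the order of the levels. Pth1r had the highest median in every group, 0.263 RQ per kb over the 24 libraries, and its range overlapped that of the next receptor, Rarg, in WT at day 8 only. Rarg (0.0534), Thra (0.0416), Rxra (0.0351) and Nr3c1 (0.0316) followed. Vdr (0.0190), Rara (0.0119) and Ghr (0.00721) were lower, and Thrb (0.00204) and Esr1 (0.000277) were the lowest. Thrb and Esr1 held the last places in all 6 groups, and the ranges of the 4 libraries around those places never overlapped. Some neighbours in the middle of the order separated and others did not: in WT OBs at day 14 Rarg, Thra and Rxra lay apart, and at day 21 the ranges of Rarg and Thra, Thra and Vdr, and Vdr and Nr3c1 overlapped while Nr3c1, Rxra and Rara lay apart. In WT, Vdr moved from place 7 at day 8 to place 4 at day 21 and Rxra from place 3 to place 6. In Het at day 21 they stood at places 6 and 5. Esr1 rested on 18 to 230 counts per library, so its values are the least precise.

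**Figure D1:**
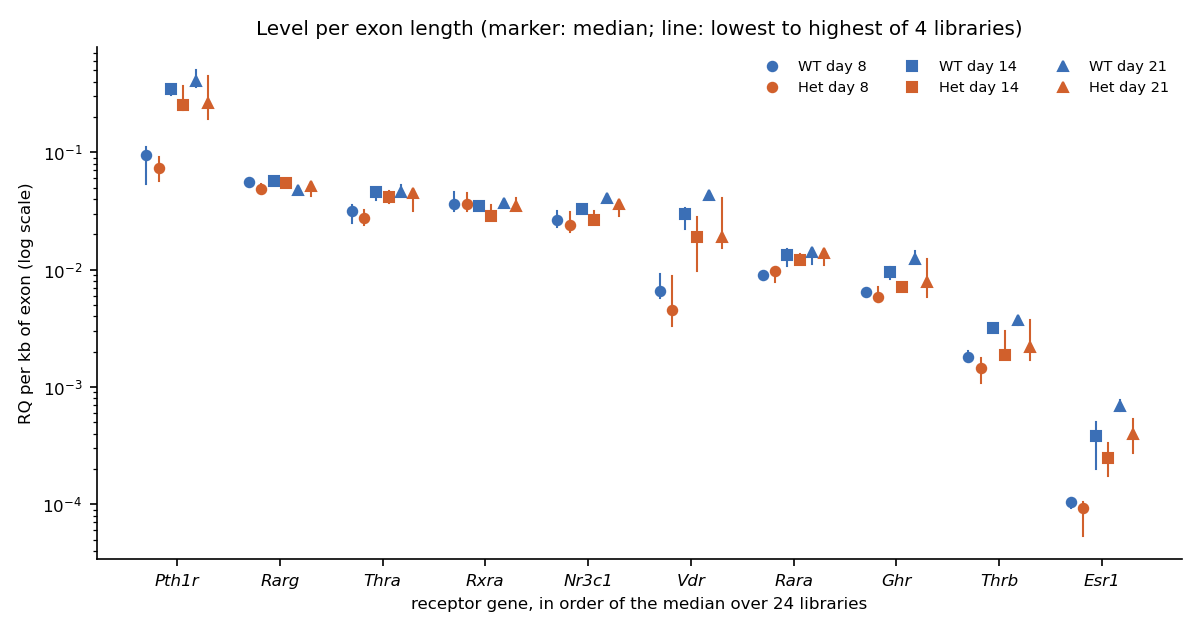
Level of each receptor as RQ per kb of exon (vertical log axis) by genotype and day, with the median of 4 libraries as a marker and a line from the lowest to the highest library. Pth1r stood highest (median 0.263 RQ per kb) and Esr1 lowest (0.000277), and Vdr and Esr1 climbed most from day 8 to day 21.

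Between days 8 and 14, 8 of the 10 receptors rose and 1 fell, where 34.2% of all genes tested rose and 13.4% fell (edgeR quasi-likelihood test, Benjamini-Hochberg adjusted p under 0.05, both genotypes together). Pth1r, Vdr, Esr1, Thra and Rara were higher in every library of day 14 than in any of day 8, as were 12.5% of all genes. The rises ran from 1.17-fold for Nr3c1 to 3.87-fold for Vdr. The scale mattered for the small changes: the median of all genes moved by 0.13 (log2) on the housekeeping scale, by -0.02 with TMM and by -0.15 on total counts, and the share of calls that were rises was 71.8%, 47.0% and 30.9% on these scales. On total counts Nr3c1 (-0.04) and Rarg (-0.18) changed sign and 5 receptors rose and 2 fell, while the rises of Pth1r, Vdr, Esr1, Thra and Thrb were called on all 7 other scales tried. From day 14 to day 21, 3 receptors rose (Esr1, Nr3c1 and Ghr) and Rarg fell, against 12.1% and 5.89% of all genes. No difference between the genotypes in the change from day 8 to day 14 was called by edgeR (0 receptors, 0 at an unadjusted p under 0.05, 0 with DESeq2, and 0.0587% of all genes), nor between the genotype difference at days 14 and 21 and that at day 8 (0 receptors, 2 at an unadjusted p under 0.05, 0 with DESeq2, and 0.171% of all genes).

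At days 14 and 21 together, 5 receptors were lower in Het than in WT OBs and none was higher, where 8.01% of all genes were called lower and 7.15% higher. They were Vdr, Esr1, Thrb, Ghr and Nr3c1, at 0.59, 0.62, 0.67, 0.70 and 0.84 of WT. In the same comparison the median log2 difference was 0.92 for macrophage and osteoclast markers, -0.77 for chondrocyte markers and -0.42 for OB and osteocyte markers, and their part in the receptor differences was not tested. Pth1r was at 0.75 of WT with an adjusted p of 0.084. These calls depended on the libraries used. Leaving out replicate 2, 3 or 4 left 0 called by edgeR (5, 4 and 4 at an unadjusted p under 0.05), and leaving out replicate 1 gave 7, Pth1r and Rxra being added, where 23.5% of all genes were called lower. Without the Het library of day 21, replicate 4, the lowest of its group for all 10 receptors, Esr1, Ghr and Thrb were still called, while Vdr (-0.68, adjusted p = 0.10) and Nr3c1 (-0.22, adjusted p = 0.073) were not. At the separate days edgeR called 0 receptors, with 1, 4 and 6 at an unadjusted p under 0.05 at days 8, 14 and 21, where 0.631%, 3.45% and 0.91% of all genes were called, and DESeq2 called 0, 2 and 3. With the replicate number as a block, Ghr and Thrb were called lower at day 14 (5.34% of all genes) and Esr1, Ghr and Thrb at day 21 (2.34%). The libraries of Het and WT did not overlap, Het being lower, for 1 receptor at day 8, 3 at day 14 and 3 at day 21, against 3.49%, 8.24% and 4.51% of all genes.

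**Figure D2:**
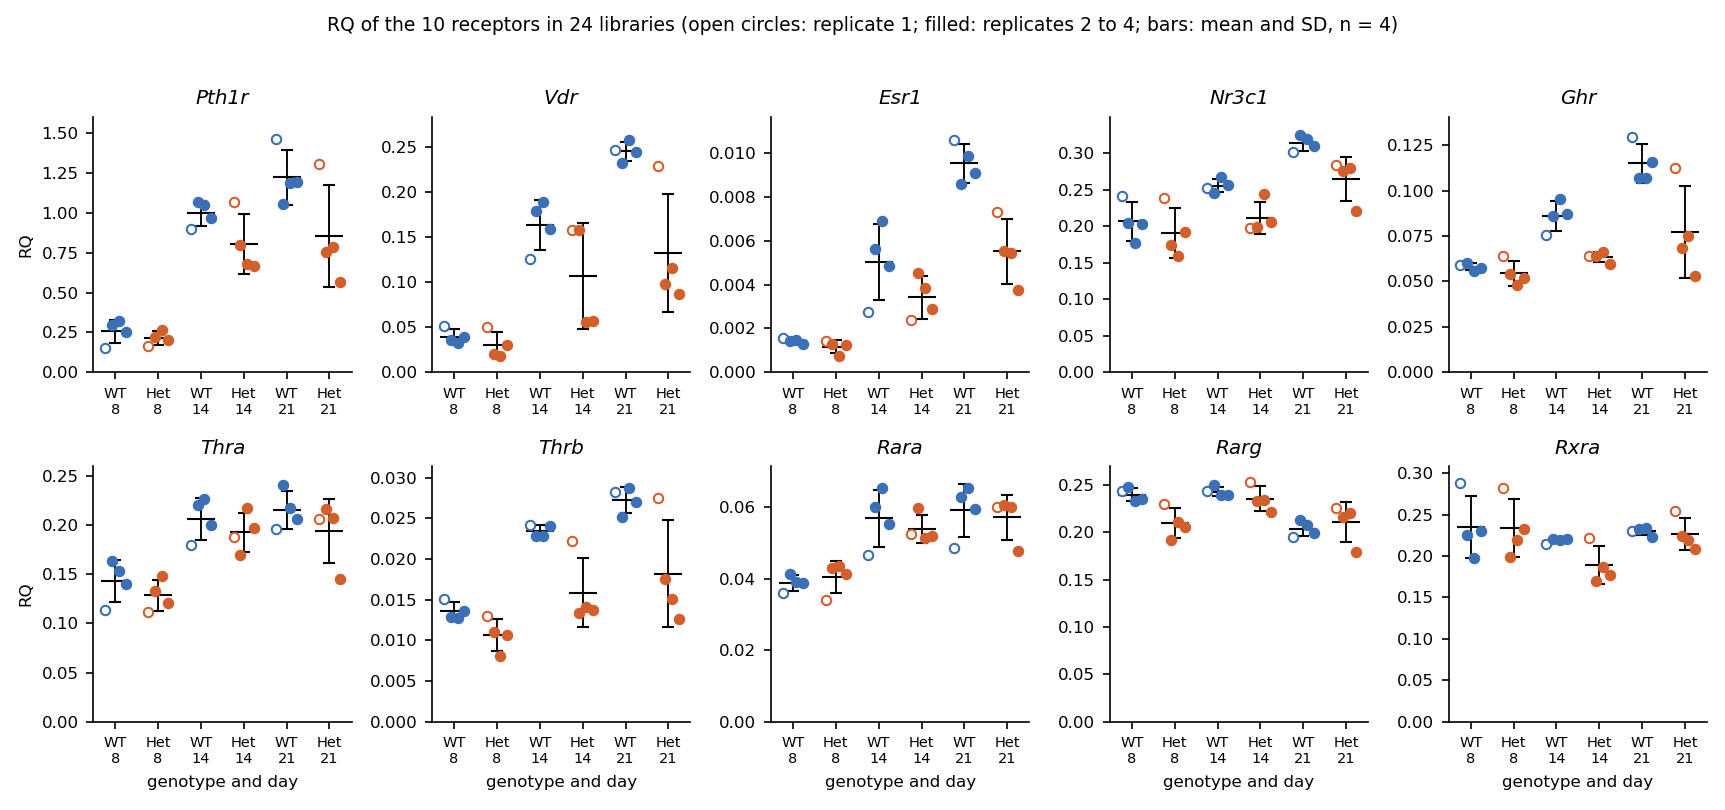
RQ of each receptor (vertical axis from 0) in the 24 libraries by genotype and day. Open circles are replicate 1, filled circles replicates 2 to 4, and bars the mean and SD of 4 libraries. At days 14 and 21 the Het replicate 1 lies above the other Het libraries for Pth1r and Thrb, near the WT libraries.

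Pth1r, the parathyroid hormone receptor, rose 3.81-fold from day 8 to day 14 and was 1.14-fold higher at day 21 than at day 14, with an adjusted p of 0.47. Its RQ in the WT libraries at day 8 was 0.156, 0.295, 0.323 and 0.256 for replicates 1 to 4, and in the Het libraries 0.165, 0.221, 0.266 and 0.205. At day 14 Pth1r stood at 0.8998, 1.07, 1.049 and 0.969 in WT and at 1.07, 0.796, 0.680 and 0.668 in Het. Every library of day 14 was above every library of day 8 (log2 fold change 1.93 ± 0.17 SE, edgeR adjusted p = 4.28e-09). At day 21 the WT libraries had a Pth1r RQ of 1.46, 1.06, 1.19 and 1.19 and the Het libraries 1.31, 0.756, 0.783 and 0.567. The Het replicates 2 to 4 lay below all WT libraries at days 14 and 21, and the Het replicate 1 lay within or above the WT range. Over days 14 and 21 the genotypes differed by -0.42 ± 0.16 (log2), with an adjusted p of 0.056 with the replicate block and 2.69e-05 without replicate 1, where Pth1r was at 0.65 of WT.

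Ghr, the growth hormone receptor, rose in 2 small steps, 1.31-fold by day 14 (adjusted p = 0.0034) and 1.27-fold more by day 21 (adjusted p = 0.022, and 0.055 without replicate 1). At day 8 its RQ was 0.0590, 0.0603, 0.0555 and 0.0574 in WT and 0.0641, 0.0541, 0.0482 and 0.0518 in Het, in overlapping ranges. At day 14 the WT libraries read 0.0753, 0.0860, 0.0953 and 0.0870 and the Het libraries 0.0638, 0.0639, 0.0664 and 0.0595. All 4 Het libraries were below all WT libraries at that day, replicate 1 included. At day 21 Ghr was at 0.130, 0.107, 0.107 and 0.116 in WT and at 0.112, 0.0682, 0.0747 and 0.0530 in Het, so that only the Het replicate 1 reached the WT range. Het was lower by 0.51 ± 0.10 on the log2 scale at days 14 and 21 (edgeR adjusted p = 0.0035). The estimate of how far the genotype difference widened from day 8 to the later days was also largest for Ghr (-0.42 ± 0.18), with an adjusted p of 0.75 over all libraries and 0.028 without replicate 1, where 4.72% of all genes were called.

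Vdr, the vitamin D receptor, had the largest estimated rise to day 14 of the 10 receptors (log2 fold change 1.95 ± 0.26, adjusted p = 2.01e-06). Its RQ at day 8 was 0.0514, 0.0355, 0.0323 and 0.0391 in WT and 0.04995, 0.0203, 0.0185 and 0.0308 in Het. The day 14 values were 0.127, 0.1796, 0.190 and 0.159 in WT and 0.159, 0.158, 0.0554 and 0.0572 in Het. The Het libraries of day 14 thus formed 2 pairs, replicates 1 and 2 at WT levels and replicates 3 and 4 near the highest day 8 values. At day 21 Vdr reached 0.247, 0.233, 0.258 and 0.245 in WT, and 0.229, 0.0980, 0.116 and 0.0866 in Het, where every Het library was below every WT library. The genotypes differed by -0.76 ± 0.25 (log2) over days 14 and 21 (adjusted p = 0.043, and 0.0068 with the block). This call held in only 9 of 28 fits that left out a replicate or library (edgeR adjusted p up to 0.396). It held on 4 of 7 other scales. Without replicate 1 Vdr was at 0.45 of WT, the lowest ratio of the 10.

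Esr1, estrogen receptor α, was scarce but rose at each step, 3.23-fold to day 14 (adjusted p = 1.29e-07) and 1.73-fold to day 21 (adjusted p = 0.0028). At day 8 the WT libraries held 18, 39, 36 and 37 counts of Esr1 and the Het libraries 20, 38, 20 and 39. By day 14 these were 30, 138, 179 and 136 counts for WT and 21, 61, 105 and 64 for Het. As RQ, the WT libraries of day 14 read 0.00274, 0.00562, 0.00690 and 0.00484 and the Het libraries 0.00238, 0.00454, 0.00383 and 0.00288. Replicate 1 was the lowest of its group in both genotypes at day 14 and the highest at day 21. At day 21 Esr1 RQ was 0.0106, 0.00857, 0.00984 and 0.00906 in WT and 0.00733, 0.00552, 0.00544 and 0.00373 in Het, without overlap. Het was lower by 0.68 ± 0.17 on the log2 scale at days 14 and 21 (edgeR adjusted p = 0.013).

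Nr3c1, the glucocorticoid receptor, changed by small amounts with little spread. It rose 1.24-fold from day 14 to day 21 (adjusted p = 0.0075). Its rise of 1.17-fold from day 8 to day 14 (adjusted p = 0.020) was lost in 4 of 28 fits that left out a replicate or library and on 3 of 7 other scales. At day 8 the WT libraries read 0.242, 0.205, 0.177 and 0.203 and the Het libraries 0.239, 0.174, 0.160 and 0.192. Their day 14 values were 0.253, 0.246, 0.268 and 0.257 for WT and 0.198, 0.199, 0.244 and 0.206 for Het. Het lay below WT without overlap at day 14 and at day 21, when Nr3c1 read 0.301, 0.325, 0.320 and 0.311 in WT and 0.284, 0.275, 0.279 and 0.221 in Het. The difference over both days was -0.26 ± 0.08 (log2, adjusted p = 0.029). That call held in 18 of 28 fits that left out a replicate or library and on 6 of 7 other scales. Over both days the RQ ratio was 0.87 in replicate 1 and 0.83 in replicates 2 to 4. At days 14 and 21 apart it was 0.78 and 0.94 in replicate 1, with 1 library per genotype and day. In replicates 2 to 4 it was 0.84 and 0.81.

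Of the thyroid hormone receptors, only Thrb was called between genotypes, and the difference between the pair was not tested. Thra, the more abundant of the pair, rose 1.47-fold by day 14 without overlap (adjusted p = 2.53e-05) and was called in no comparison of genotypes (0.92 of WT at days 14 and 21, log2 difference between -0.30 and 0.05 at 95% confidence, adjusted p = 0.38). Its WT libraries read 0.179, 0.221, 0.226 and 0.2001 at day 14 and its Het libraries 0.188, 0.170, 0.217 and 0.197. Thrb rose 1.6-fold by day 14 (adjusted p = 2.53e-04) and was lower in Het. Its RQ at day 8 was 0.0151, 0.0128, 0.0128 and 0.0137 for WT and 0.0130, 0.0110, 0.00806 and 0.0106 for Het. At day 14 Thrb read 0.0241, 0.0229, 0.0228 and 0.0241 in WT and 0.0222, 0.0134, 0.0141 and 0.0137 in Het, so the 3 Het libraries of replicates 2 to 4 lay together and far from both replicate 1 and WT. Day 21 repeated this, with 0.0283, 0.0252, 0.0287 and 0.0270 in WT and 0.0275, 0.0176, 0.0151 and 0.0126 in Het. The difference was -0.58 ± 0.13 (log2, adjusted p = 0.0071) over all libraries, and without replicate 1 Thrb was at 0.58 of WT.

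Among the retinoid receptors, Rara rose 1.4-fold by day 14 without overlap (adjusted p = 1.91e-05), with RQ between 0.0341 and 0.0436 at day 8 and between 0.0467 and 0.0653 at day 14. Rarg held the narrowest range of the 10 receptors. Its RQ stayed between 0.1797 and 0.253 in all 24 libraries, and it fell by 0.21 ± 0.05 on the log2 scale from day 14 to day 21 (adjusted p = 0.0041). Rarg was also the only receptor at day 8 whose Het libraries all lay below all WT libraries, at 0.230, 0.192, 0.211 and 0.206 against 0.243, 0.248, 0.233 and 0.235, with an adjusted p of 0.25. Rxra, the heterodimer partner, fell to 0.87 of its day 8 level by day 14 (adjusted p = 0.030). This call was lost in 6 of 28 fits that left out a replicate or library (adjusted p up to 0.154) and on 1 of 7 other scales. At day 14 it read 0.215, 0.221, 0.219 and 0.220 in WT and 0.222, 0.170, 0.186 and 0.177 in Het. None of the 3 was called between genotypes at days 14 and 21, with ratios of 0.96 for Rara, 1.00 for Rarg and 0.92 for Rxra. The 95% intervals of the log2 difference were -0.21 to 0.08, -0.09 to 0.09 and -0.26 to 0.03. Without replicate 1, Rxra was called lower at 0.87 of WT (adjusted p = 0.0027).

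In the libraries numbered replicate 1 the Het to WT ratio of RQ over days 14 and 21 was 1.01 for Pth1r, 1.04 for Vdr and 0.95 for Thrb, against 0.65, 0.45 and 0.57 in replicates 2 to 4. The ratio in replicate 1 was below 1 for Esr1 (0.73), Nr3c1 (0.87), Ghr (0.86) and Thrb, and above 1 for the other 6 receptors. In replicates 2 to 4 all 10 ratios were below 1. Replicate 1 holds 1 library per genotype and day, so its ratios have no spread of their own. Within replicates 2 to 4, Het lay below WT without overlap for 4 receptors at day 8, 8 at day 14 and 6 at day 21, against 28.9%, 21.9% and 25.5% of all genes. Marker genes differed between these sets too. At day 14 the summed RQ of 14 macrophage and osteoclast genes was 3.53 in the Het and 5.07 in the WT replicate 1, and 7.19 to 7.83 in Het and 2.27 to 3.10 in WT in replicates 2 to 4. The summed RQ of 8 chondrocyte genes was 26.4 and 24.8 in replicate 1, and 1.89 to 3.02 in Het and 7.96 to 15.2 in WT in replicates 2 to 4. That of 12 OB and osteocyte genes was 96.5 and 102 in replicate 1, and 108 to 128 in Het and 154 to 183 in WT in replicates 2 to 4.

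**Figure D3:**
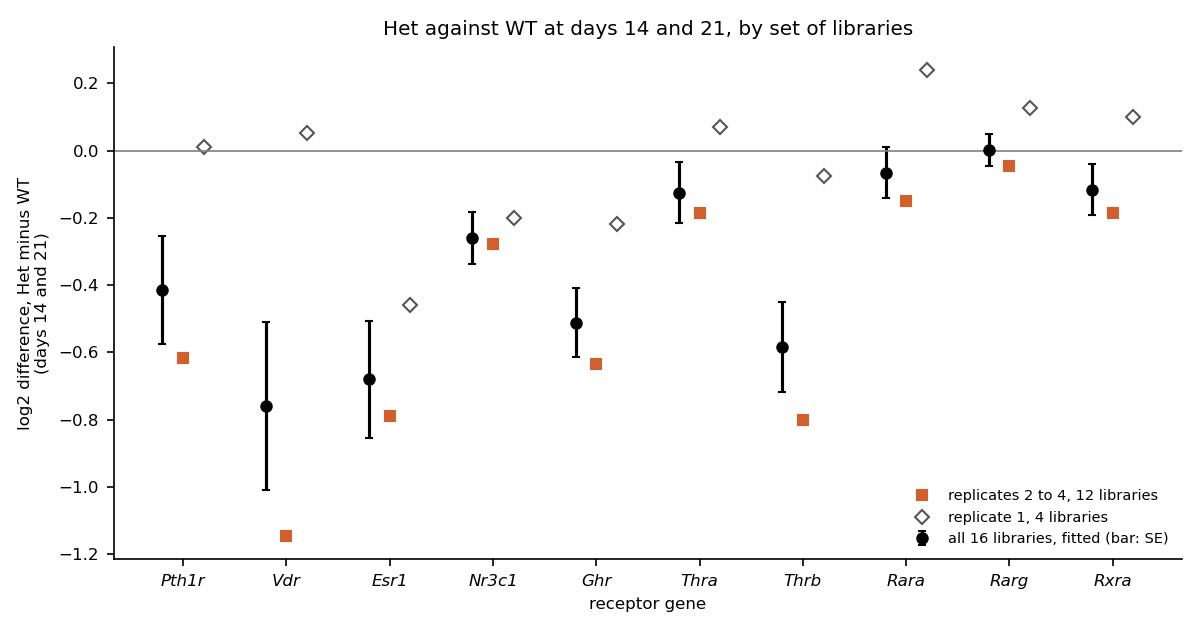
Difference between Het and WT at days 14 and 21 for each receptor, in log2 units, with the fit to all libraries (circles, bar SE), the RQ ratio in replicates 2 to 4 (squares) and the RQ ratio in replicate 1 (diamonds, no error since there is 1 library per group). For Vdr the values were -0.76 in the fit, a ratio of 0.45 in replicates 2 to 4 and 1.04 in replicate 1, while for Nr3c1 the sets lie close together.

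By the study's rule for bulk data, a change above 20% in mean RQ with p under 0.05, 5 receptors were lower in Het over days 14 and 21 in an exact two-sided permutation test of 8 against 8 libraries, where 8.09% of all genes were lower by this rule. They were Vdr (ratio 0.59, exact p = 0.0096), Esr1 (0.61, exact p = 0.027), Thrb (0.67, exact p = 0.0026), Ghr (0.70, exact p = 0.0062) and Pth1r (0.75, exact p = 0.021). Nr3c1 had an exact p of 0.021 with a ratio of 0.84, short of the 20% limit. The other 4 ratios lay between 0.92 and 1.00, with exact p from 0.13 to 0.98. The smallest p this design allows is 0.000155. Without replicate 1 the number called stayed at 5, and without replicate 2, 3 or 4 it was 3, 2 and 2. Pth1r (exact p = 0.084, 0.12 and 0.12) and Esr1 (exact p = 0.067, 0.10 and 0.0996) lost the call each time, and Vdr lost it without replicate 3 (exact p = 0.074) or 4 (exact p = 0.061). Pth1r passed this rule but not the edgeR fit, and Nr3c1 the reverse. These regroupings crossed days 14 and 21. Regroupings kept within each day called the same 5 receptors, with an exact p of 0.0033 for Esr1 and 0.000408 for Nr3c1. The smallest possible p was then 0.000408. The study itself used t- and U-tests on fewer wells per genotype.

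Genes that these receptors are known to regulate were taken from lists of textbook targets. The lists do not separate genes that a receptor raises from those it lowers, so their counts give no direction of receptor activity. Each count stands against 34.2% of all genes rising and 13.4% falling by day 14, and 7.15% higher and 8.01% lower in Het at days 14 and 21. When replicate 1 was left out, 4 PTH targets were higher and 4 lower in Het. These counts were then 1 and 5 for vitamin D, 4 and 2 for glucocorticoid and 2 and 3 for growth hormone. They were 0 and 4 for thyroid hormone and 2 and 3 for retinoid targets, against 18.4% and 23.5% of all genes. For PTH, 8 of 11 targets rose from day 8 to day 14 and none fell. Those that rose included Sost (the Wnt inhibitor of osteocytes), Mmp13 (a collagenase) and Rgs2 (a regulator of G protein signalling). Their log2 fold changes were 10.02 ± 0.61, 1.82 ± 0.29 and 1.52 ± 0.19. Sost is also one of the OB and osteocyte markers. Against WT at days 14 and 21, Rgs2 (0.90 ± 0.18), Fos (0.55 ± 0.11) and Nfil3 (0.33 ± 0.08) were higher in Het and Pde4d, a cAMP phosphodiesterase, was lower (-0.56 ± 0.12), with a list median of -0.12 against -0.05 for all genes. Tnfsf11, the osteoclast-inducing cytokine RANKL, is shared by the PTH and vitamin D lists. Its RQ at day 21 was 0.0253, 0.0120, 0.0113 and 0.0145 in WT and 0.0185, 0.00289, 0.00373 and 0.00288 in Het. The Het replicate 1 of Tnfsf11 lay above 3 WT libraries and the other Het libraries far below them. Over days 14 and 21 Tnfsf11 differed by -0.85 ± 0.35 (adjusted p = 0.10, 0.0020 with the block, and 9.79e-07 without replicate 1).

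For vitamin D, only 7 of 12 targets had counts high enough to test, and Cyp24a1, the classic induced gene that breaks down vitamin D, had 0 to 2 counts in every library. Bglap, the osteocalcin gene, was lower in Het at days 14 and 21 by 1.54 ± 0.36 on the log2 scale (edgeR adjusted p = 0.0080). So was Lrp5, a Wnt co-receptor, by 0.52 ± 0.14 (edgeR adjusted p = 0.019), and its value was the list median (-0.52). The medians of the retinoid, thyroid hormone and estrogen lists were -0.34, -0.34 and -0.31. Those of the growth hormone and glucocorticoid lists were -0.14 and 0.02. Bglap is also one of the OB and osteocyte markers, and it has near-identical neighbours among which reads could be split. With day 14, Bglap (7.09 ± 0.49) and Lrp5 (1.31 ± 0.15) rose and Enpp1 (-1.08 ± 0.30) and Enpp3 (-0.93 ± 0.23), genes of enzymes that act on extracellular nucleotides, fell. Of 8 estrogen targets, 1 was higher in Het, the protease gene Ctsd (0.27 ± 0.08), and none was lower. When replicate 1 was left out, 1 was higher and 5 were lower. From day 8 to day 14 Cxcl12, a chemokine, rose by 1.89 ± 0.22. In this list 4 rose, Igfbp4 (0.71 ± 0.16) among them, and 2 fell. Of 12 glucocorticoid targets, 8 rose and 4 fell with day 14, among them Zbtb16 (3.29 ± 0.33), Tsc22d3 (0.62 ± 0.06), Sgk1 (-1.40 ± 0.26) and Fkbp5 (-0.46 ± 0.11). In Het, Mt2 and Ddit4 were higher by 1.00 ± 0.25 and 0.37 ± 0.12, and Tsc22d3, a widely used glucocorticoid target, differed by 0.00 ± 0.05 (adjusted p = 0.996). Fkbp5 was not called between genotypes at days 14 and 21. Its RQ at day 21 was higher in Het (0.0190 to 0.0243) than in WT (0.0160 to 0.0172) without overlap. At day 14 the ranges overlapped (0.0277 to 0.0322 in Het and 0.0221 to 0.0333 in WT).

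For growth hormone, Igf1, the main growth factor induced by GHR, rose with day 14 (1.07 ± 0.32, adjusted p = 0.0084), as did Igfals, Bcl6 and Socs2. At day 21 Igf1 RQ was 0.228, 0.234, 0.209 and 0.224 in WT and 0.188, 0.373, 0.323 and 0.386 in Het. Its Het replicate 1 was below all WT libraries and the other Het libraries above them, and the difference over days 14 and 21 was 0.45 ± 0.31 (adjusted p = 0.35, and 4.33e-04 without replicate 1, where the estimate was 0.70). Socs2, an inhibitor of GHR signalling, differed by -0.23 ± 0.08 (adjusted p = 0.057, and 0.048 with the block). Igfals, the serum carrier subunit of IGFs, was the only growth hormone target of 7 called in Het, lower by 0.84 ± 0.25. Of 5 thyroid hormone targets, 4 rose with day 14, led by Hr (1.41 ± 0.17) and Klf9 (0.96 ± 0.10), and Me1, the malic enzyme, was lower in Het by 0.34 ± 0.05 (adjusted p = 4.96e-04). Thrsp was the other one called lower (-1.001 ± 0.33, at a mean of 13.8 counts, named after its value was seen). Of 10 retinoid targets, 1 was higher in Het, Crabp2 (1.25 ± 0.26), and 1 was lower. With day 14, 2 retinoid targets rose, Rarres2 (1.36 ± 0.12) and Rarres1 (0.82 ± 0.30), and 2 fell, Crabp2 (-0.65 ± 0.25) among them.

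Of the enzymes and carriers that set ligand supply, most were not called between genotypes with every library. In Het at days 14 and 21, the retinaldehyde dehydrogenases that make retinoic acid split, with Aldh1a2 higher by 2.29 ± 0.40 (adjusted p = 0.0012) and Aldh1a3 lower by 1.41 ± 0.34 (adjusted p = 0.0092). The retinoic acid binding proteins Crabp1 (1.80 ± 0.60) and Crabp2 were higher. Hsd11b2, which inactivates glucocorticoid, was lower (-1.26 ± 0.27, at a mean of 17.5 counts), and was named after its value was seen. Of the 18 genes tested in this list, 3 were higher and 3 lower. The counts were 6 and 5 when replicate 1 was left out. From day 8 to day 14, 6 of the 18 rose and 4 fell, and the largest rises were those of Aldh1a2 (2.99 ± 0.44), Aldh1a3 (1.36 ± 0.35) and the thyroid hormone transporter gene Slc16a10 (1.09 ± 0.13). Cyp27b1, which activates vitamin D, had 1 to 16 counts per library, and Cyp26b1, which degrades retinoic acid, differed by -0.35 ± 0.23 (adjusted p = 0.32). Dio2, which activates thyroid hormone, differed by 0.88 ± 0.48 (adjusted p = 0.23), Dio3, which inactivates it, by -0.43 ± 0.15 (adjusted p = 0.062) and Hsd11b1, which activates glucocorticoid, by -0.32 ± 0.18 (adjusted p = 0.24). The local PTH1R ligand gene Pthlh differed by -0.10 ± 0.34 (adjusted p = 0.90). Of these, Dio3 and Hsd11b1 rose from day 8 to day 14, by 0.56 ± 0.16 and 0.49 ± 0.18.

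Among 25 signalling partners and coregulators, 4 were higher and 3 lower in Het at days 14 and 21. The counts were 5 and 10 when replicate 1 was left out. The β-arrestin genes Arrb1 and Arrb2, whose products desensitise receptors such as PTH1R, were higher by 0.31 ± 0.08 and 0.79 ± 0.17. Gnas, which encodes the Gs α subunit downstream of PTH1R, was lower by 0.21 ± 0.06 (adjusted p = 0.020), at a mean of 46929 counts. The coactivator gene Ncoa3 was higher by 0.28 ± 0.06 and Stat5b, downstream of GHR, lower by 0.16 ± 0.04. With day 14, 10 of the 25 rose and 3 fell, shares near the 34.2% and 13.4% of all genes, with rises of 1.56 ± 0.18 for Arrb2, 1.28 ± 0.08 for Arrb1 and 0.81 ± 0.08 for Jak2, the kinase of GHR. Macrophage and osteoclast markers moved the same way as the arrestins: 9 of 13 tested were higher in Het, with a median log2 difference of 0.92, and 12 of 13 rose from day 8 to day 14. Their part in these differences, and in that of Igf1, was not tested. Of 27 other nuclear and hormone receptors tested, 1 was higher in Het and 4 were lower, among them Rora (-0.43 ± 0.13) and Ppard (-0.26 ± 0.06). The counts were 3 and 9 when replicate 1 was left out. With day 14, 15 of these 27 rose and 4 fell, among them Rora (1.14 ± 0.13), the mineralocorticoid receptor gene Nr3c2 (1.12 ± 0.20) and Nr2f2 (-0.99 ± 0.12). Rarb, the retinoic acid receptor not among the 10, had 11 to 47 counts and differed by -0.33 ± 0.22 (adjusted p = 0.33), and Nr1d1, the opposite-strand neighbour of Thra, differed by -0.11 ± 0.09 (adjusted p = 0.42).

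**Figure D4:**
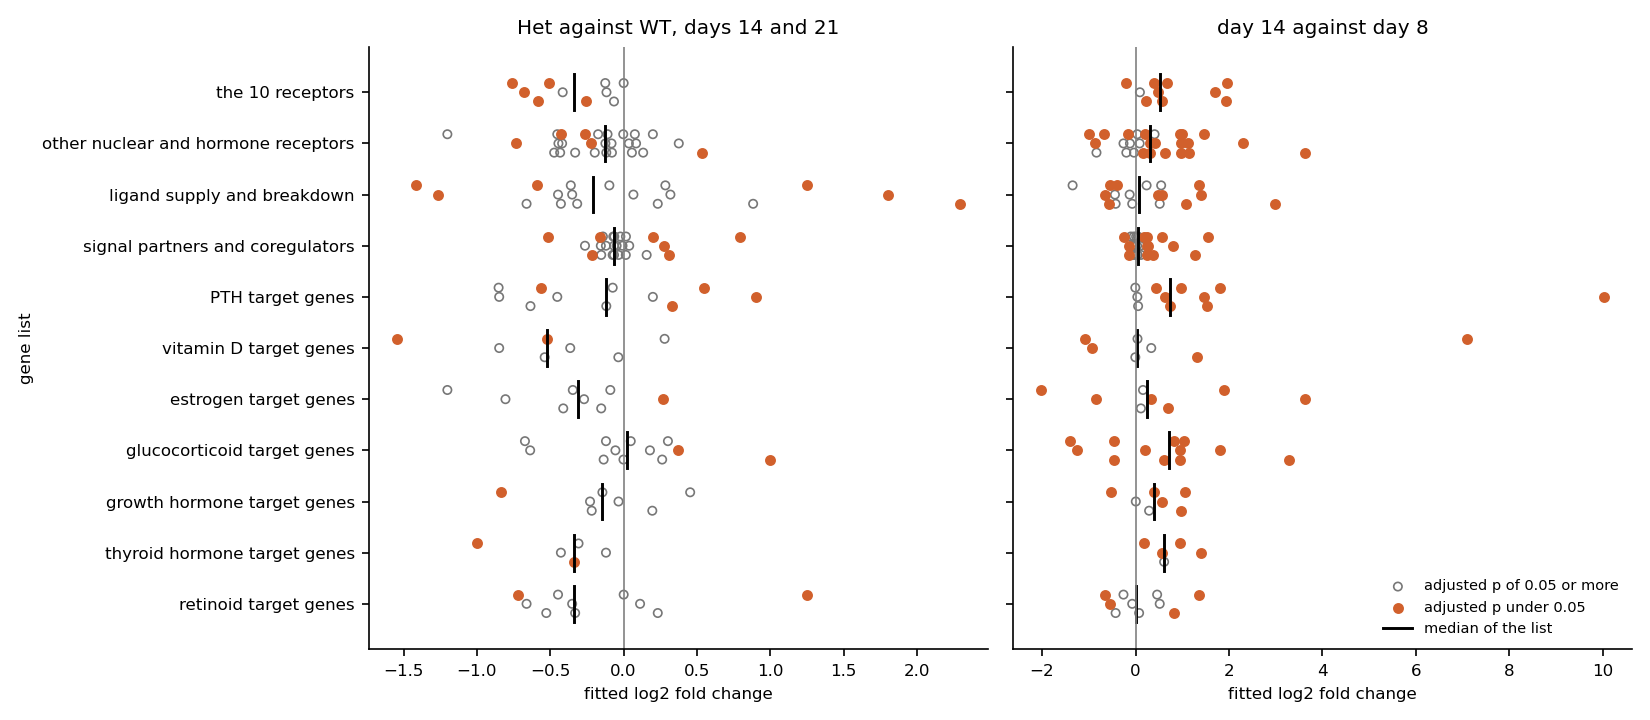
Fitted log2 fold changes of the 10 receptors and of genes in each list around them, for Het against WT at days 14 and 21 (left) and day 14 against day 8 (right). Filled points passed an adjusted p of 0.05, open points did not, and the black bar is the median of the list. On the left the median is -0.52 for vitamin D, -0.34 for retinoid, -0.34 for thyroid hormone and -0.31 for estrogen targets. Sost stands at 10.02 on the right.

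The genes whose profile over the 24 libraries was nearest to each receptor were sought by the root mean square (RMS) difference of centred log2 RQ, over 14890 genes. Rxra had the closest neighbours, Src (0.052) and Inf2 (0.063), followed by Rarg with Ganab (0.061) and Gtf2ird1 (0.068). The nearest genes to Thra were P3h3 (0.090) and Smarca2 (0.109), to Nr3c1 Frmd6 (0.091) and Fbxl20 (0.098), and to Rara Ppp6r2 (0.095) and Galnt10 (0.097). Receptors that varied more had looser neighbours: Ghr with Bbof1 and Plekha5 (0.150 each), Thrb with Cryzl2 (0.152) and Plekha7 (0.153), and Pth1r with Prr5l (0.226) and Gprc5c (0.238). For Vdr they were Tspan7 (0.227) and Pde1a (0.267), and for Esr1 Nog (0.293) and Sema5a (0.301). Among the receptors themselves, Rara and Thra were the nearest pair (0.144) and Rarg and Rxra the next (0.205).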

How the data were processed

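The authors cultured the OBs and deposited 1 table of raw counts per library. The submitters' processing notes name cutadapt 2.5, STAR 2.73a, Subread featureCounts 1.6.4 and the mm10 build. The annotation release and the rules on strand and multiple mapping are not given in the sources used here. Reads carry no molecular identifiers, so copies of the same molecule could be counted more than once. Counting error may be understated for that reason, by an amount that was not measured. The deposited counts were analysed in R 4.3.3 with edgeR 4.0.16 (quasi-likelihood test): 6 group means in a single fit of 24 libraries, library sizes set by the geometric mean of Actg1, Actb, Mrfap1 and Sdha, genes kept by filterByExpr, and p-values adjusted over all genes tested. Standard errors (SE) are those of the fit. Comparisons are averaged over days or genotypes with equal weight. Single RQ ratios were tested with exact permutation tests in SciPy 1.17.1. Alternatives were DESeq2 1.42.0, other scales, other filters, a replicate block and leaving out libraries. The script was tested on simulated counts. Gene positions are from GENCODE M21, where 55154 of the 55335 gene IDs matched without their version number, and promoter sequences from RefSeq.

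Deviations from group means were correlated between WT and Het libraries of the same day and number. The correlation was over 0.1 in 12 of 12 pairs (median 0.371), against a median of -0.07 for unequal numbers. Within replicates 2 to 4 the median was 0.353 for equal and 0.303 for unequal numbers, so among these the numbers hardly marked pairs. The receptors and gene lists were chosen with earlier results of these data known. Named genes are the 10 receptors, fixed targets and ligand genes, up to 3 genes per list with the largest called change at a mean of 50 counts or more, and the 2 nearest profiles of each receptor. Some genes of these lists are not reported here.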

Additional observations from a re-analysis of the deposited data

Results flagged for a closer look

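In each of the 60 combinations of receptor and group, the highest and lowest of the 4 libraries were compared with the other 3, and 6 stood apart by Dixon's criterion at the 95% level (the gap to the nearest library over the range of the group), where chance gives about 1 in 20, or 3. Of the 6, 3 were low values in the Het library of day 21, replicate 4: Nr3c1 at an RQ of 0.221, Thra at 0.146 and Rara at 0.0478. The others were high values in Het at day 14: Nr3c1 in replicate 3 at 0.244, Thrb in replicate 1 at 0.0222 and Rara in replicate 2 at 0.0597. The Het library of day 21, replicate 4 was also the lowest of its group for the other 7 receptors.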

How the results depend on the processing

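The calls between Het and WT moved most with the replicate set. At days 14 and 21 together, 5 receptors were called in the reported fit, 0 to 7 when a replicate number was left out (7 without replicate 1), 3 to 6 when a single library was left out (3 without WT day 14 replicate 3 or 4, WT day 21 replicate 2 or 3, or Het replicate 4 of day 14 or 21), and 9 with a replicate block and no replicate 1 set, a fit added after seeing the data. At day 8 none was called, against 0 to 2 without a replicate and 3 with that block fit. At day 14 none was called, against 0 to 6 without a replicate, 1 on the scale without Mrfap1, 2 with the replicate block, 2 with DESeq2 and 6 with the block and no replicate 1 set. At day 21 none was called, against 0 to 6 without a replicate or a library, 1 on each of the TMM, DESeq2 size factor, total count and Mrfap1-free scales, 3 with the replicate block, 3 with DESeq2 and 6 with the block and no replicate 1 set. Without replicate 1 the receptor counts in these comparisons were 7, 2, 6 and 6, where 41.9%, 17.3%, 29.1% and 24.3% of all genes were called. The shares of all genes for the block without the replicate 1 set are not given here. For the change of the genotype difference from day 8, 0 to 1 was called without a replicate and 1 with the block and no replicate 1 set. From day 14 to day 21, 4 were called, 2 to 5 without a replicate or a library (2 without replicate 2). Between days 14 and 21, 7 of 8 correlations of equal numbers were over 0.1 (lowest 0.0711, median 0.402), and the block gave 5 calls. The replicate block changed no other count of receptors by over 1.5 times. On total counts the day 14 to day 8 change of Nr3c1 (-0.044) and Rarg (-0.18) changed sign. The RQ ratio at days 14 and 21 lost its call for Pth1r without replicate 2, 3 or 4 (0.652 to 0.803 over the replicates left out), for Vdr without 3 or 4 (0.452 to 0.662) and for Esr1 without 2, 3 or 4 (0.579 to 0.656). The cause was not tested. Of 3200 alternative values of the fold changes, 3061 stayed on their side of the threshold.

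Genes called in all at days 14 and 21 numbered 3098, against 8236 without replicate 1, 239, 366 and 86 without replicates 2, 3 and 4, and 5005 with the block. At day 8 they numbered 129, against 0 to 3405 without a replicate, 315 with the block and 458 with DESeq2. At day 14 they numbered 704, against 6 to 5727, 1983 and 1712, and at day 21 186, against 4 to 4770, 955 and 797. The share of calls that were higher in Het at days 14 and 21 was 47.2%, against 59.6% with TMM and 77.5% on total counts. From day 14 to day 21 it was 67.3% for rises, against 45.2% with TMM. The low counts of Esr1 (18 to 230) limit what can be seen of it.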
